A study of Homo sapiens with 4 samples.

Results

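The TAZ, YAP, TEAD and VGLL genes encode the co-activators, DNA-binding factors and cofactors through which Hippo signalling reaches transcription. They were chosen by symbol as 9 named genes: WWTR1, YAP1, TEAD1, TEAD2, TEAD3, TEAD4, VGLL1, VGLL3 and VGLL4, out of 18377 genes with a symbol of their own on the array. Each of the 9 had 1 probe set annotated to that gene alone, and no further probe set shared with other genes. The study profiled A549 and H441, established human lung cancer cell lines, 48 h after lipid-mediated transfection of siTAZ, named for the protein TAZ, or of the control siNTC. The groups were A549 with siTAZ, A549 with siNTC, H441 with siTAZ and H441 with siNTC, each on 1 Affymetrix whole-transcript array. Every group therefore has 1 sample, all 4 groups went through transfection, and no untransfected cells were analysed here. The design text and title pose the question of which genes TAZ regulates in these lines.

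TAZ, encoded by WWTR1, and its paralog YAP do not bind DNA themselves. They are kept in the cytoplasm or degraded when the Hippo kinases phosphorylate them, and otherwise enter the nucleus and bind TEAD factors, which recognise the DNA element that carries the core letters CATTCC. VGLL proteins bind TEADs through a short Vestigial-type motif on a surface that overlaps the one used by YAP and TAZ, and VGLL4 is known as an antagonist of YAP at TEADs.

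Values are the authors' log2 RMA signals, where 1 unit is a 2-fold step, and differences are siTAZ minus siNTC unless stated otherwise. Array medians lay between 6.05 and 6.25, and the median of the whole table was 6.13. Differences between dim signals can be compressed by RMA, so folds of probe sets under that median may be understated. Whether this holds for these arrays was not tested. The arrays measured bulk RNA, in which fewer expressing cells and less RNA per cell cannot be told apart. Protein was not measured, which matters for a pathway regulated largely by phosphorylation. All 6 epithelial markers (EPCAM, CDH1 and 4 keratins) were at or above the table median in both lines. Of the 4 lung lineage markers matched (NKX2-1, SFTPB, SLC34A2 and NAPSA), 0 reached it in A549, where their higher array lay between 5.02 and 5.83, and all 4 did in H441, between 8.09 and 10.71. Of the 13 blood, endothelial and fibroblast markers matched, CD14 and COL1A1 reached it in A549 and KDR, COL1A1 and COL1A2 in H441.

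After siTAZ, 2 of the 9 genes passed the limma test over both lines as lower, WWTR1 and VGLL1, and 0 as higher. WWTR1 is the gene that siTAZ targets, so its fall says nothing about the other genes, and each count over the 9 includes it. Among the 8 without WWTR1, VGLL1 alone was called, and 0 reached 1.5-fold in A549 and 1 in H441. VGLL1 fell mainly in H441 (-1.01), against -0.32 in A549, where both its signals lay below the table median. All 9 were among the 12740 genes bright enough to be tested, VGLL1 through its H441 arrays and VGLL3 through its A549 arrays. Limma was fitted to the 4 arrays with a term for the line, and a gene was called where its Benjamini-Hochberg adjusted p lay below 0.05. Of all tested genes it called 2.47% in either direction, with 1.19% of the tested genes higher and 1.29% lower. That split of 151 higher and 164 lower became 123 higher and 277 lower after median centring. Before adjustment, 4 of the 9 had a limma p below 0.05, as had 1688 of all 12740. Since 4 arrays and 3 fitted terms leave 1 degree of freedom, the standard errors (SE) borrow mostly from the other genes, and the lines are the only repeats. The median difference of the 9 was 0.10, against 0.01 over all tested genes. In 8 of the 9 genes the difference had the same sign in both lines, as it had in 57.5% of all tested genes.

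**Figure D1:**
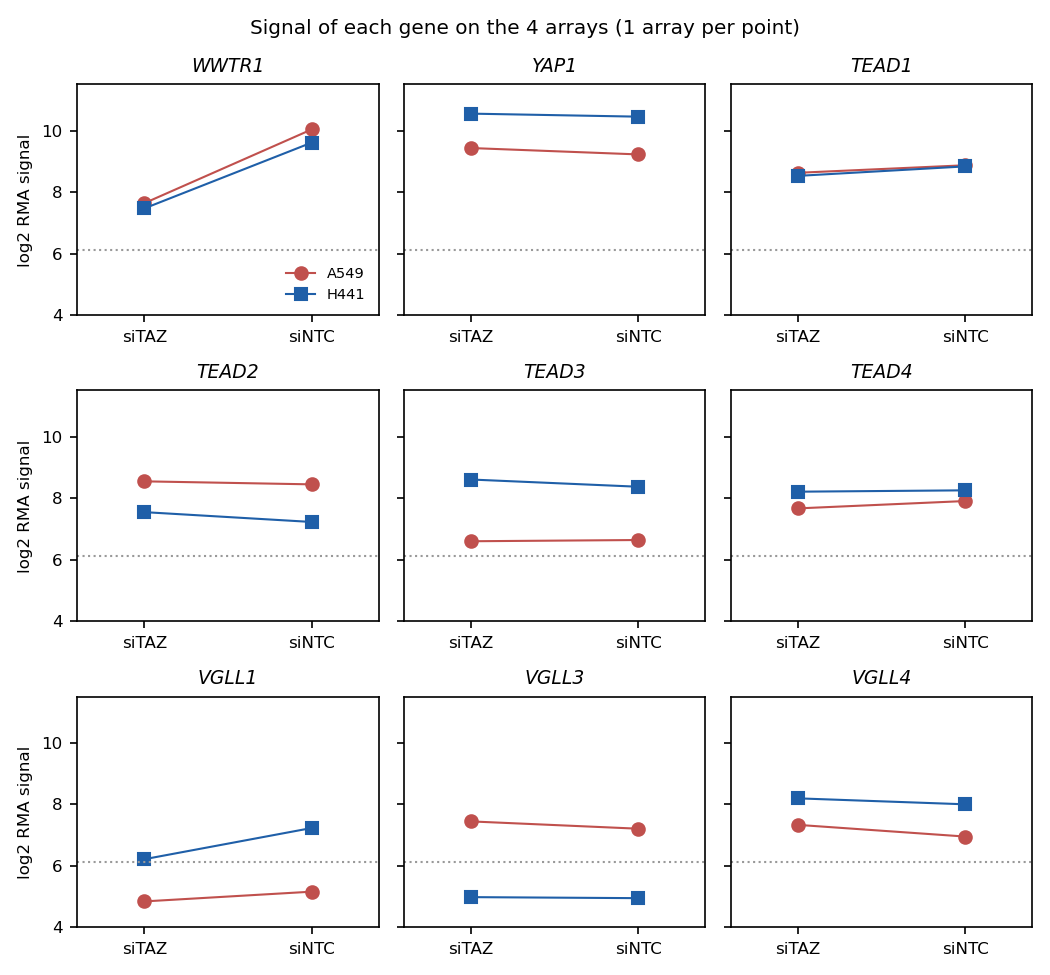
Log2 RMA signal (vertical axis) of each of the 9 genes with siTAZ (left) and siNTC (right). Circles are A549 and squares H441, 1 array per point, and the dotted line is the table median of 6.13. WWTR1 drops in both lines, VGLL1 mainly in H441, and the lines stand apart for YAP1, TEAD2, TEAD3, VGLL1, VGLL3 and VGLL4.

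WWTR1, the targeted gene, had a signal of 7.64 with siTAZ, against 10.04 with siNTC, in A549. In H441 it had 7.47 with siTAZ, against 9.61 with siNTC. Both siTAZ arrays lay below both siNTC arrays, so the siRNA separated the arrays more than the line did. The difference over both lines was -2.27 ± 0.12 (limma SE, 95% interval -2.51 to -2.02, limma adjusted p = 1.5e-11), and 0% of the tested genes had a larger absolute difference. The remaining signal was 19.0% of the control in A549 and 22.7% in H441. WWTR1 stayed above the table median on both siTAZ arrays. The sequence of siTAZ is not given in the sources used here, so its position relative to the probes is unknown.

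No gene moved as WWTR1 did. By Euclidean distance over the row-centred log2 values of the 4 arrays, the genes nearest to it were ERLIN1, CSRP1 and ATP7A, at distances between 1.49 and 1.51, against a median distance of 2.43 over all tested genes. ERLIN1, an endoplasmic reticulum membrane protein gene, was -0.72 in A549 and -0.87 in H441. CSRP1, a LIM domain protein gene, was at -1.13 and -0.66 in the same order of lines, and ATP7A, a copper transporter gene, had -0.90 and -0.62. Each of these differences was smaller than that of WWTR1 in its line.

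YAP1, which encodes the paralog that binds the same TEADs, had a signal of 9.44 with siTAZ, against 9.23 with siNTC, in A549. In H441 it had 10.55 with siTAZ, against 10.46 with siNTC. Both siTAZ values were the higher of their line, by amounts that 29.2% of A549 genes and 62.3% of H441 genes matched or exceeded in absolute size. The difference over both lines was 0.15 ± 0.12 (limma SE, limma adjusted p = 0.65), with a 95% interval of -0.09 to 0.39 on the log2 scale. That interval holds both a small rise and no change. It sets no firm upper bound on a YAP1 rise, since its width comes mostly from other genes. After quantile normalization the estimate was 0.18 ± 0.11 (limma SE).

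The 4 TEAD genes encode the DNA-binding partners, and 0 of them passed the limma test over all genes. TEAD1 had an unadjusted p under 0.05. In A549, 3 of the 4 were lower after siTAZ, and in H441, 2 of the 4. TEAD1 had 8.63 with siTAZ, against 8.88 with siNTC, in A549, and 8.53 with siTAZ, against 8.84 with siNTC, in H441. Both of its siTAZ arrays lay below both siNTC arrays, the same order as for WWTR1, at a smaller size: -0.28 ± 0.12 (limma SE, 95% interval -0.52 to -0.03, unadjusted p = 0.027, limma adjusted p = 0.28). An absolute difference larger than this was found in 10.4% of tested genes.

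TEAD2 had 8.55 with siTAZ, against 8.45 with siNTC, in A549, and 7.55 with siTAZ, against 7.23 with siNTC, in H441. It was higher after siTAZ in each line, by 0.21 ± 0.12 over both (limma SE, adjusted p = 0.48), and did not pass. TEAD4 had 7.67 with siTAZ, against 7.91 with siNTC, in A549, and 8.21 with siTAZ, against 8.26 with siNTC, in H441. Its difference of -0.24 in A549 and -0.04 in H441 gave -0.14 ± 0.12 over both lines (limma SE, adjusted p = 0.69). TEAD3 had 6.60 with siTAZ, against 6.64 with siNTC, in A549, and 8.61 with siTAZ, against 8.37 with siNTC, in H441. It was the 1 gene of the 9 with opposite signs, -0.04 in A549 and 0.23 in H441 (limma adjusted p = 0.82 over both lines). No TEAD gene reached 1.5-fold in either line, and their values ran from -0.24 to 0.10 in A549 and from -0.31 to 0.32 in H441.

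**Figure D2:**
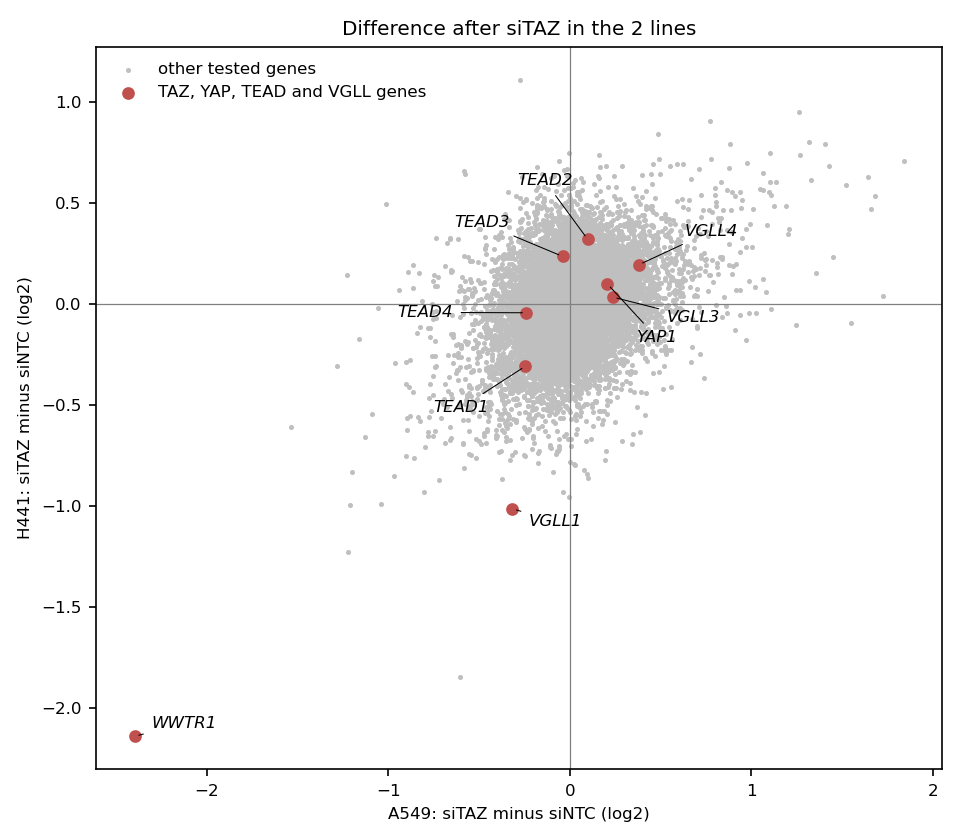
Difference siTAZ minus siNTC on the log2 scale in A549 (horizontal axis) and H441 (vertical axis) for the 12740 tested genes, 1 grey point per gene, with the 9 genes in red. WWTR1 lies alone at the lower left, at -2.40 and -2.14, VGLL1 at -0.32 and -1.01, and the other 7 lie within the bulk of the genes.

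VGLL1, a TEAD cofactor gene, was the other gene called lower. In H441 it had 6.21 with siTAZ, against 7.23 with siNTC, which left 49.5% of the control signal. In A549 it had 4.84 with siTAZ, against 5.16 with siNTC, both below the table median. At least 1.5-fold in H441 were WWTR1 and VGLL1 of the 9, against a background of 1.45% of 11911 genes in either direction and 0.974% lower. In A549 it was WWTR1 alone, against 2.83% of 11405 genes in either direction and 1.07% lower. In H441 only 0.042% of genes had an absolute difference as large as that of VGLL1. Over both lines VGLL1 fell by 0.67 ± 0.14 on the log2 scale (limma SE, adjusted p = 0.0072), with rank 116 by p among the tested genes. That call rests mainly on the H441 arrays, through which VGLL1 entered the test, and says little about A549. The call was lost after quantile normalization of the arrays (limma adjusted p = 0.059), after cyclic loess (0.15) and without the filter on dim genes (0.0998). The H441 difference minus the A549 difference was -0.70, a gap that 1.41% of tested genes reached. With 1 array per group it could not be tested.

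The promoter windows of VGLL1 and YAP1 are shown because, among the 7 genes with a window, only these held the TEAD core, searched as CATTCC and as its reverse complement GGAATG, so that both strands were covered and each site counts once. Windows run from 250 bases before to 50 after the RefSeq gene start and read along the gene's strand, and capitals mark the core. Of 35116 such windows of 300 bases, 14% held it. RefSeq windows of GRCh38.p14 were matched for 7 of the 9 genes, 13 windows in all, of which 2 held the core; TEAD1 and TEAD4 had no entry. The VGLL1 window is chrX:136531965-136532264, plus strand, with the core starting 157 bases before the gene start. The YAP1 window is chr11:102110197-102110496, plus strand, with the core starting 162 bases before it. VGLL1 was called lower after siTAZ, mainly through H441, and YAP1 did not pass. The match describes these letters alone and no binding was measured.
VGLL1: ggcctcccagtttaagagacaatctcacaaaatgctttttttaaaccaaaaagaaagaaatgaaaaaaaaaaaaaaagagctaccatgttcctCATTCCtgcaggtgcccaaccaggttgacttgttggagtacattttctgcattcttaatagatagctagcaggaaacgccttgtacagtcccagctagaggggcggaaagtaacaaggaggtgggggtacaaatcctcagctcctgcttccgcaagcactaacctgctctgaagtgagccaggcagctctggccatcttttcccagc
YAP1: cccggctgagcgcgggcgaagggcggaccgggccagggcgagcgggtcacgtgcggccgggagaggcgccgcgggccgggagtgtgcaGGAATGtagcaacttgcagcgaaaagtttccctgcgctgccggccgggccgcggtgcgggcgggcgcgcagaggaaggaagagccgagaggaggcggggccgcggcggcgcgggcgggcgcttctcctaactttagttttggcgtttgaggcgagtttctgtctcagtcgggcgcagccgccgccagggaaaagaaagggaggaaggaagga

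VGLL3, which encodes another TEAD cofactor, had 7.44 with siTAZ, against 7.21 with siNTC, in A549. In H441 it had 4.98 with siTAZ, against 4.95 with siNTC, both below the table median. The lines therefore held the reverse arrangement to VGLL1, with VGLL3 above the table median in A549 alone and VGLL1 in H441 alone. The difference after siTAZ was 0.24 in A549 and 0.03 in H441 (0.14 ± 0.12 over both, limma SE, adjusted p = 0.71).

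VGLL4, the gene of the YAP antagonist, had 7.33 with siTAZ, against 6.95 with siNTC, in A549, and 8.19 with siTAZ, against 7.999 with siNTC, in H441. It was higher with siTAZ in each line, 1.30-fold in A549 and 1.14-fold in H441, and its A549 difference was matched by 9.3% of genes there. Over both lines it had 0.29 ± 0.12 (limma SE, 95% interval 0.04 to 0.53, unadjusted p = 0.024, limma adjusted p = 0.26) and did not pass over all genes. VGLL2, the remaining gene of the family and not one of the 9, had signals between 5.02 and 5.52, below the table median on all 4 arrays.

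**Figure D3:**
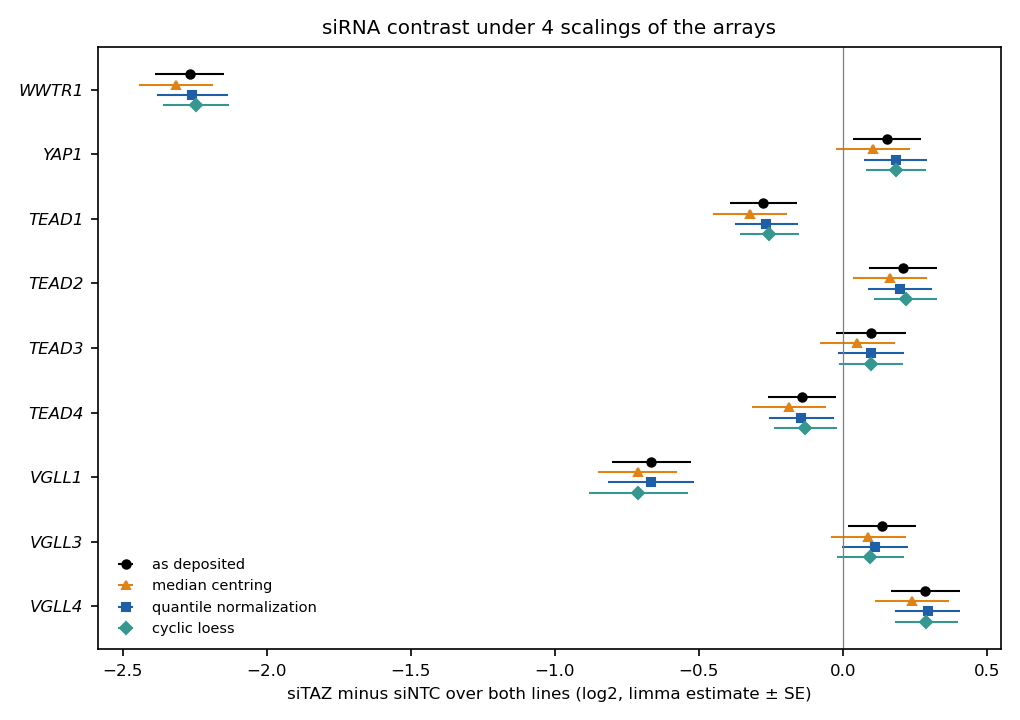
Limma estimate of siTAZ minus siNTC over both lines for each gene (log2, horizontal axis), with bars of 1 SE, for the arrays as deposited and after median centring, quantile normalization and cyclic loess. WWTR1 stays between -2.31 and -2.25, and no gene changes sign under these 4 scalings.

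A549 and H441 differed in most of these genes irrespective of the siRNA. In the same limma fit, 3 genes were higher in A549 (WWTR1, TEAD2 and VGLL3) and 5 lower in A549 (YAP1, TEAD3, TEAD4, VGLL1 and VGLL4), while TEAD1 did not pass. VGLL1 and VGLL3 had passed the filter on dim genes only through the line where they are bright, so their calls carry no weight of their own. That count of 8 in 9 stands beside a background of 71.9% of all tested genes called, 19% higher and 52.8% lower in A549, so the share is not particular to these genes. The contrast compares 2 cell lines, each seen on arrays that differ in siRNA. It also depends on scaling, since the median A549 minus H441 difference over all tested genes was -0.31 as deposited, -0.15 after median centring, -0.00028 after quantile normalization and 0.02 after cyclic loess. As deposited, 2425 genes were called higher and 6733 lower in A549, against 4068 and 4141 after quantile normalization and 3109 and 5244 after median centring. The 4 lung lineage markers above move with this contrast, and their part in it was not tested.

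VGLL3 had the widest contrast of the 9, with 7.44 and 7.21 in A549 (siTAZ and siNTC) and 4.98 and 4.95 in H441, a difference of 2.36 on the log2 scale. It entered the test through the line where it is bright, and its H441 signals were dim, so this difference is given as a description and no p stands beside it. The genes nearest to VGLL3 over the 4 arrays were CHST11, a chondroitin sulfotransferase gene, EIF5A2, a translation factor gene, and LHX8, a LIM homeobox gene, at distances of 0.05, 0.06 and 0.08, against a median of 2.68. Their A549 minus H441 differences were 2.32, 2.41 and 2.33. TEAD2 was also higher in A549, by 1.11 ± 0.12 (adjusted p = 1.2e-08), or 1.44 after quantile normalization.

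TEAD3 was lower in A549, with an A549 minus H441 difference of -1.87 ± 0.12 (limma SE, adjusted p = 1.2e-12), or -1.57 after quantile normalization, and all its A549 signals lay under all its H441 signals. TEAD2 and TEAD3 thus had opposite line patterns, each kept under the 3 other scalings. VGLL1 had a difference of -1.72, given likewise as a description, because it entered the test through H441 and its A549 signals were dim. YAP1 had -1.17 ± 0.12 (adjusted p = 3.9e-09), or -0.78 after quantile normalization, and VGLL4 had -0.95 ± 0.12 (adjusted p = 1.4e-07), or -0.66.

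The co-activator genes differed between lines in opposite directions. WWTR1 was 0.30 ± 0.12 higher in A549 than in H441 (limma SE, adjusted p = 0.029), or 0.66 after quantile normalization, and it was 1.12-fold higher in A549 on the siTAZ arrays (0.17) and 1.35-fold higher on the siNTC arrays (0.43). Without the siRNA in the fit WWTR1 lost this call (adjusted p = 0.76). Its estimate averages the siNTC arrays with the siTAZ arrays, and 68.5% of tested genes had a larger absolute line difference. YAP1 with siNTC had 9.23 in A549, against 10.46 in H441, and was 2.34-fold higher in H441. For TEAD1 and TEAD4 the call turned with scaling. TEAD1 had 0.07 ± 0.12 as deposited (limma adjusted p = 0.61) and 0.47 after quantile normalization (adjusted p = 0.0025). TEAD4 had -0.45 ± 0.12 as deposited (adjusted p = 0.0018) and -0.10 after quantile normalization (adjusted p = 0.45).

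**Figure D4:**
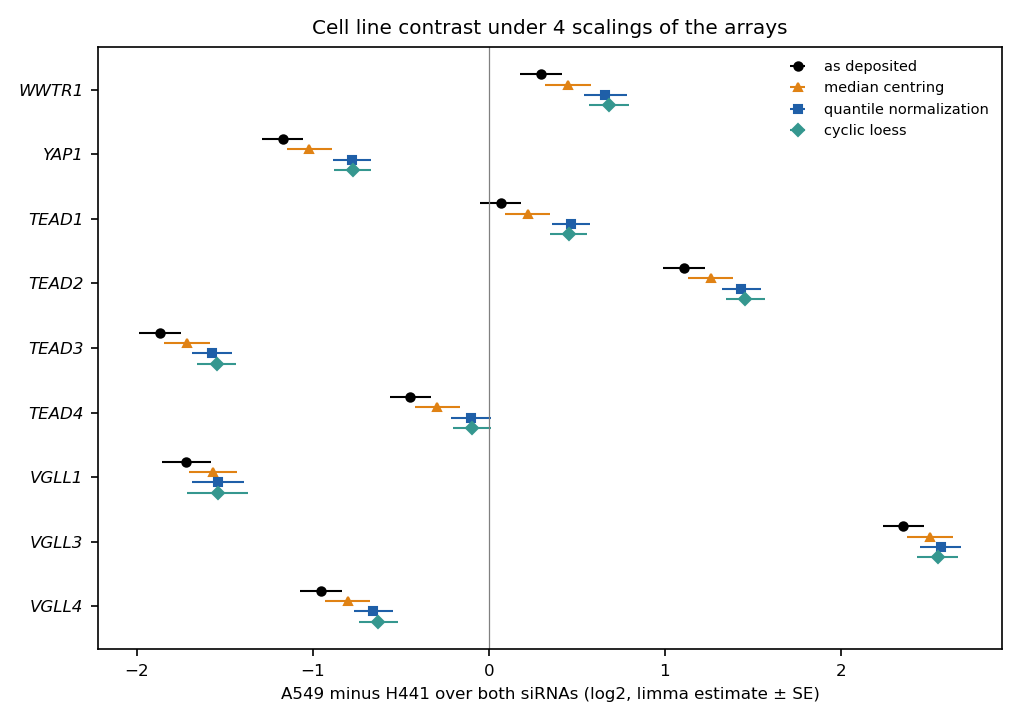
Limma estimate of A549 minus H441 over both siRNAs for each gene (log2, horizontal axis), with bars of 1 SE, under 4 scalings of the arrays. VGLL3 and TEAD2 lie right of 0 and TEAD3, VGLL1, YAP1 and VGLL4 left of it under all 4, while TEAD1 and TEAD4 come close to 0 under some.

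Of 25 upstream Hippo pathway regulators, which control whether YAP and TAZ reach the nucleus, 21 were tested. Of these, 0 passed the limma test in either direction, beside the 2.47% of all tested genes called. At an unadjusted limma p under 0.05 were 4 of the 21, and 1688 of all 12740 tested genes. The median difference of the 21 was -0.02 in A549 and -0.16 in H441, against 0.00 and 0.01 over all tested genes. AMOTL2, LATS2 and PTPN14 are also on the list of YAP/TAZ target genes below, so the lists are not separate sets. LATS1, a kinase that phosphorylates YAP and TAZ, had 7.71 with siTAZ, against 7.26 with siNTC, in A549, and 8.17 with siTAZ, against 7.78 with siNTC, in H441 (0.42 ± 0.12, limma SE, adjusted p = 0.057), higher in both lines and just short of the call. STK3, an upstream kinase, had 0.53 in A549 and -0.25 in H441 (adjusted p = 0.76). WWC1, the scaffold KIBRA, had -0.47 and -0.12 in the same order (adjusted p = 0.26).

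Downstream, 2 of 22 YAP/TAZ target genes were called lower, 0 higher and 20 did not pass, beside 1.19% of all tested genes called higher and 1.29% lower. At an unadjusted p under 0.05 were 9 of the 22, and 1688 of all 12740. Over both lines, NT5E was the higher one of these, and MYOF, CCN1, ANKRD1, AXL, CRIM1, FJX1, NUAK2 and TGFB2 were lower. CCN1, a matricellular protein gene, had 7.21 with siTAZ, against 7.69 with siNTC, in A549, and 9.60 with siTAZ, against 10.24 with siNTC, in H441 (adjusted p = 0.0087). ANKRD1, an ankyrin repeat gene, had 5.58 with siTAZ, against 6.87 with siNTC, in A549, and 5.67 with siTAZ, against 5.98 with siNTC, in H441. ANKRD1 reached the table median on the A549 siNTC array alone, so it entered the test through a control array where it is high. Its call therefore carries no weight of its own, and no p is given for it. CCN1 and ANKRD1 were lower in each line, and both calls were lost after cyclic loess and without the filter on dim genes. NT5E, a surface nucleotidase gene, had 0.97 in A549 and -0.18 in H441 (limma adjusted p = 0.27). The median over the list was -0.04 in A549 and -0.17 in H441, against 0.00 and 0.01 over all tested genes.

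The list of other genes whose proteins are known to bind TAZ or YAP held 13, all transcription factor genes apart from the receptor gene ERBB4. Of these, 10 were tested, ERBB4 not among them, and 0 passed the limma test. That test called 2.47% of all tested genes. RUNX1 and SMAD4 had an unadjusted p under 0.05, as had 1688 of all 12740 tested genes. RUNX1, a Runt factor gene, had 0.19 in A549 and 0.38 in H441 (limma adjusted p = 0.26). SMAD4, which carries TGF-beta signals with the receptor-regulated SMADs, had -0.30 and -0.22 in the same order (adjusted p = 0.33). NKX2-1, the lung lineage factor that TAZ binds, had 5.01 with siTAZ, against 5.02 with siNTC, in A549, below the table median, and 9.57 with siTAZ, against 9.14 with siNTC, in H441 (adjusted p = 0.52). The median of the 10 was 0.00 in A549 and 0.05 in H441, against 0.00 and 0.01 over all tested genes.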

How the data were processed

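RNA of 4 samples was hybridised to 1 array each. The authors deposited RMA signals per probe set, as the submitters' processing notes name that method without a version or settings, joint normalization of the 4 arrays included. That these deposited signals are on a log2 scale was judged from their range, 4.20 to 14.83. The number of arrays limits the precision.

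From these values, 19310 of 28869 probe sets were named by their single symbol in the platform annotation, 1752 had several symbols and 7807 none; symbols were updated through Entrez identifiers for all but 31. For 685 genes with more than 1 probe set, the brightest by mean was used. Limma 3.58.1 in R 4.3.3 (lmFit, eBayes, two-sided, prior worth 22.3 degrees of freedom) was fitted with line and siRNA as terms to genes whose highest value reached the table median. Within a line, a gene was counted where the higher array reached it; these differences have no test. The fit was also run on simulated data with the same noise level for every gene and the same change in both lines. That setting is simpler than these arrays, so the run is no check of the calls. The members and lists were chosen with earlier results of these data known. Named were the 9 genes; per pathway list the called members and the 3 with the largest mean absolute difference; and the 3 genes nearest to WWTR1 and to the gene with the widest line contrast. The percent of genes with a larger difference is a description of these arrays. Alternatives were 3 scalings, 2 filters, the mean of probe sets, another variance prior, no block, and 1 line or siRNA alone. A comparison of protein sequences was planned and not made, since no protein sequences were used here.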

Additional observations from a re-analysis of the deposited data

Results flagged for a closer look

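TEAD3 moved in opposite directions after siTAZ in the lines, with -0.040 in A549 and 0.23 in H441 on the log2 scale. The difference between the lines was not tested, since each rests on 1 pair of arrays, and 26.4% of tested genes had a gap between the lines at least as large.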

How the results depend on the processing

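All values rest on 1 array per group. Of the 2 genes of the set called after siTAZ, 1 was left (WWTR1) after quantile normalization, after cyclic loess and without the filter on dim genes, and 0 without the cell line in the fit; the cause of the first 3 was not tested. That last fit has no replicate block, and limma then called 0 of 12740 genes, with 11 at an unadjusted p under 0.05, because the difference between the lines entered the spread. No other pairing within a line was possible, since each line had 1 siTAZ array and 1 siNTC array. In the 7 alternative fits that keep the block, VGLL1 had estimates from -0.71 to -0.67 and limma adjusted p of 0.00035 to 0.15. Only the 3 scalings could change its estimate or direction. The VGLL1 call was lost after quantile normalization and cyclic loess. It was kept after median centring, which moved the median difference over all tested genes from 0.01 to -0.04, the direction of that call. WWTR1 was called in all 7 of these fits (adjusted p of at most 0.00044). With 1 line alone, the VGLL1 value was -1.01 in H441 and -0.32 in A549. For A549 minus H441, 8 genes were called in each of these fits, with TEAD1 in place of TEAD4 after quantile normalization and cyclic loess, and 7 without siRNA in the fit, where WWTR1 was lost. Called list genes were 0 for YAP/TAZ targets after cyclic loess, without the filter and without the block, and 4 with an intensity trend and robust prior, which also called 1 Hippo regulator. Over all genes, calls after siTAZ numbered 315 as reported, 400 after median centring, 142 after quantile normalization, 20 after cyclic loess, 92 without the filter and 558 with the trend and robust prior.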
